A study of Mus musculus with 12 samples.

Results

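The bone morphogenetic protein (BMP) genes described here are 10 of the 46731 genes in the RNA-seq table and were chosen by name. They comprise the ligands *Bmp2* and *Bmp4*, the receptors *Bmpr1a* and *Bmpr2*, the secreted antagonist *Grem1*, the inhibitory Smads *Smad6* and *Smad7*, and the inhibitors of DNA binding *Id1*, *Id2* and *Id3*. RNA was taken from ATDC5 cells, a mouse line of teratocarcinoma origin that can be driven to form cartilage, in 4 groups of 3 libraries. A lentivirus with a U6 promoter had introduced a hairpin, either a negative control (shRNA-NC) or directed at the RNA helicase gene *Ddx5* (shRNA-*Ddx5*), and cells were selected with puromycin. Each line was kept for 6 h in medium without stimulation or with IL-1β (5 ng/ml) plus TNF-α (25 ng/ml), here called the cytokines. All 12 libraries therefore carried a stably integrated hairpin vector, also the controls. The knockdown rested on a single pair of lines, so an effect of the line or of the hairpin sequence and an effect of *Ddx5* loss cannot be told apart. The study describes the 3 replicates as biologically independent experiments. The libraries held 14119199 to 19276520 fragments assigned to genes.

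BMP ligands bring together type I and type II receptors, which phosphorylate Smad1, Smad5 and Smad9. These join Smad4, enter the nucleus and switch on a small set of early targets, among them *Id1*, *Id2*, *Id3*, *Smad6* and *Smad7*, and the products of the latter pair feed back to dampen the signal. Outside the cell, antagonists such as gremlin 1 and noggin bind the ligands and keep them from the receptors. In cartilage the pathway is known for driving chondrocyte differentiation and, later, hypertrophy.

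The upstream sequences of 4 members whose level was higher in shRNA-*Ddx5* than in shRNA-NC cells with cytokines are shown, so that their letters can be compared. These genes were picked by that comparison and did not share a direction in all others. They are the 250 bases before the RefSeq start of each gene (build GRCm38.p6), written 5′ to 3′ on the strand of the gene. Capitals mark the GC box GGGCGG on either strand and the palindrome GGCGCC, known from BMP-responsive elements of the Id genes.
*Bmp4*, chr14:46390670-46390919, minus strand: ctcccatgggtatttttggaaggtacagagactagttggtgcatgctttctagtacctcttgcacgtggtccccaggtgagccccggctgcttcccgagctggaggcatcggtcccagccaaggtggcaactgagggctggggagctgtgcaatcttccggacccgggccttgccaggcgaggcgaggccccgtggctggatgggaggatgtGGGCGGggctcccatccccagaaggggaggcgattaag
*Grem1*, chr2:113758649-113758898, minus strand: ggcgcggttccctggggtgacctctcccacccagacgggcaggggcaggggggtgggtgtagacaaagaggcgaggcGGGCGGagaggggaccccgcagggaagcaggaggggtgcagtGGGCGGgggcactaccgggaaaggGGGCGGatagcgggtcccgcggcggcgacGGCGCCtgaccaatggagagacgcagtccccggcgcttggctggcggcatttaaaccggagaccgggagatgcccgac
*Smad6*, chr9:64022060-64022309, minus strand: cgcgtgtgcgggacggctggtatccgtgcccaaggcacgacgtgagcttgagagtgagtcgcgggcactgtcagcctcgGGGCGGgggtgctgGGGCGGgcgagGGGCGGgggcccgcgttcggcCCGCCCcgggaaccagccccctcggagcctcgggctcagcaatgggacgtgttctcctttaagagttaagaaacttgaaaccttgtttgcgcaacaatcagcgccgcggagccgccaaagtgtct
*Id3*, chr4:136143572-136143821, plus strand: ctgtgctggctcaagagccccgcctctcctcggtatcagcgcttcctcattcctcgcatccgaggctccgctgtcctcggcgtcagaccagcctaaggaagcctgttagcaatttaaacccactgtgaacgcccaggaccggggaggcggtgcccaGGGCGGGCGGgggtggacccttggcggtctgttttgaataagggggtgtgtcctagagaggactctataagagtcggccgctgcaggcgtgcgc
Of the 10 members, 7 had an entry among the RefSeq promoters, namely these 4 and *Bmpr1a*, *Bmpr2* and *Id2*. The letters GGGCGG, searched on both strands, were found in all 7 windows and in 32.7% of all 32851 windows of this length. The letters GGCGCC were found in 4 of the 7 (*Grem1*, *Id2*, *Bmpr1a* and *Bmpr2*) and in 9.59% of all windows. A pattern of 4 runs of GGG with 1 to 7 bases between them, which can fold into a G-quadruplex, the DNA structure that the study concerns, was found on 1 strand or the other in 4 of the 7 (*Grem1*, *Smad6*, *Bmpr1a* and *Bmpr2*) and in 16.6% of all windows. In *Grem1* and *Smad6* such matches overlapped GGGCGG boxes. The quadruplex that the study resolved, in a collagen promoter, rests on runs of GG and would not match the GGG pattern. TATAAA (12.4% of all windows), TGACGTCA (1.55%), GTCTAGAC (0.167%) and GGCGCC followed after 5 bases by GTCT (0.0700%) were in none of the 7 windows. No binding was measured in these libraries, and the matches are given as a description of the letters.

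The hairpin lowered its target in every library. *Ddx5* measured 325, 337 and 294 FPKM (fragments per kilobase of gene, scaled for library depth) in shRNA-NC and 90.7, 118 and 99.9 FPKM in shRNA-*Ddx5* cells in medium. With cytokines the values were 327, 302 and 301 FPKM against 101, 93.6 and 104 FPKM. The knockdown left 32.3% of the control level in medium and 32.1% with cytokines. The cells were checked against marker genes. *Sox9*, the master regulator of chondrocytes, lay between 22.3 and 27.8 FPKM in medium and between 5.08 and 9.51 FPKM with cytokines. *Col2a1*, the main cartilage collagen, lay between 9.09 and 15.0 FPKM in shRNA-NC cells in medium and between 0.850 and 0.952 FPKM in shRNA-*Ddx5* cells. *Acan* and *Comp*, markers of mature cartilage matrix, did not exceed 0.0325 and 0.333 FPKM in any library. Of the 8 chondrogenic markers listed, 3 reached 1 FPKM in a library. The summed level of these 8 genes was 39.1 to 44.3 FPKM in shRNA-NC and 26.1 to 30.0 FPKM in shRNA-*Ddx5* cells in medium, and 12.9 to 18.01 and 7.15 to 7.90 FPKM with cytokines. Some members of low level went the other way. *Sox6*, a partner of *Sox9* in chondrocytes, had 151, 161 and 109 fragments in shRNA-NC and 587, 765 and 755 in shRNA-*Ddx5* cells in medium, a mean of 0.171 against 0.914 FPKM, and 0.124 against 0.333 FPKM with cytokines. *Hapln1*, encoding a link protein of cartilage matrix, was at 0 fragments in all 6 libraries of shRNA-NC cells and had 7, 12 and 11 fragments in medium and 2, 1 and 10 with cytokines in shRNA-*Ddx5* cells. Neither gene reached the filter for testing. The 6 mesenchymal markers summed to 2007 to 2502 FPKM in shRNA-NC and 3239 to 3451 FPKM in shRNA-*Ddx5* cells in medium, and to 1320 to 1519 and 2194 to 2493 FPKM with cytokines. The members of that list did not move together. *Col1a2*, a chain of type I collagen, rose with the knockdown from a mean of 499 to 1738 FPKM in medium (adjusted p = 6.46e-06) and from 319 to 1321 FPKM with cytokines (adjusted p = 2.5e-06). *Vim*, encoding vimentin, fell from 1641 to 1221 FPKM in medium (adjusted p = 0.0140) and from 1094 to 685 FPKM with cytokines (adjusted p = 0.000822), so that *Vim* was the most abundant of the 6 in every control library and *Col1a2* in every knockdown library. These sums moved with the knockdown and with the cytokines, and their part in the results below was not tested. *Ptprc*, *Cdh5* and *Epcam*, which define leukocytes, endothelium and epithelium, had no fragment in any library, and the most abundant gene of those 3 marker lists was *Cd68* at 0.890 to 2.10 FPKM. A pair of genes of the leukocyte list lay higher in the knockdown libraries, at low levels and below the filter for testing. *Lyz2* had 1, 1 and 1 fragments in shRNA-NC and 15, 23 and 14 in shRNA-*Ddx5* cells in medium, and 0, 2 and 1 against 9, 15 and 5 with cytokines. *Csf1r* had a mean of 0.0887 FPKM against 0.381 FPKM in medium and 0.0327 against 0.267 FPKM with cytokines. The 5 leukocyte markers summed to 1.29 to 1.79 FPKM in shRNA-NC and 1.94 to 2.84 FPKM in shRNA-*Ddx5* cells in medium, and to 1.57 to 2.25 and 2.02 to 2.57 FPKM with cytokines. *Cdh1*, of the epithelial list, was at 0 fragments in all 6 libraries of shRNA-NC cells and had 6, 3 and 3 fragments in medium and 3, 5 and 1 with cytokines in shRNA-*Ddx5* cells, and the 4 epithelial markers summed to at most 0.116 FPKM in any library. The part of these genes in the results below was not tested. In bulk RNA, fewer cells of a type and less RNA per cell cannot be told apart.

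Some libraries stood apart from their groups. The third shRNA-NC library in medium was the shallowest and correlated with its group at r = 0.973 and 0.977, where the other pair reached 0.991. The first shRNA-NC library with cytokines correlated with its group at r = 0.981 and 0.984, where the other pair reached 0.992, and had the lowest *Bmp4*, *Smad6*, *Id1* and *Id3* of its group. The first shRNA-*Ddx5* library in medium correlated with its group at r = 0.980 and 0.986, where the other pair reached 0.990. It had the highest *Smad6*, *Id1* and *Id3* and the lowest *Bmpr1a* and *Bmpr2* of its group, and its long genes read lower against its short genes than in any other library (a difference of -0.19 between the median log2 deviations of the longest 25% and the shortest 25% of genes). The second shRNA-NC library with cytokines had a mean correlation of 0.961 with the shRNA-*Ddx5* libraries with cytokines, against 0.937 and 0.951 for the other 2 of its group. It also had the highest *Col3a1* of its group (14.7 FPKM against 3.72 and 6.32 FPKM), a collagen gene that lay at 246 to 270 FPKM in the shRNA-*Ddx5* group. The counting of reads shared between near-identical gene copies, and the strand setting, were not given in the sources used here, so reads of a member and of a copy or of an overlapping antisense gene cannot be told apart.

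*Bmp4* was the only BMP ligand gene among those examined to pass the filter of 1 FPKM in at least 3 libraries, and its RNA was raised by the knockdown and lowered by the cytokines. *Bmp4* (gene 12159, GRCm39 chr14:46620982-46628126, minus strand) measured 36.7, 39.1 and 39.8 FPKM in shRNA-NC and 91.99, 81.9 and 93.7 FPKM in shRNA-*Ddx5* cells in medium. With cytokines it measured 8.20, 11.9 and 9.48 FPKM in shRNA-NC and 34.4, 33.3 and 31.1 FPKM in shRNA-*Ddx5* cells. No 2 of the groups overlapped, and the knockdown cells with cytokines came back to just below the level of unstimulated control cells. The knockdown raised *Bmp4* 2.32-fold in medium and 3.34-fold with cytokines, as ratios of mean FPKM. The difference on the log2(FPKM + 1) scale was 1.19 ± 0.11 (SE) in medium (adjusted p = 1.28e-05) and 1.66 ± 0.11 with cytokines (adjusted p = 1.35e-06). The cytokines lowered *Bmp4* to 25.6% of the unstimulated level in shRNA-NC (log2 difference -1.88 ± 0.11, adjusted p = 3.41e-07) and to 36.9% in shRNA-*Ddx5* cells (-1.41 ± 0.11, adjusted p = 2.74e-06). *Bmp2* (gene 12156, chr2:133394079-133404816, plus strand) had no fragment in any of the 12 libraries. A count of 0 allows up to 3 fragments, or 0.0408 to 0.0560 FPKM depending on the library, and covers counting error only. *Bmp2* was therefore not tested. None of 12 further ligand genes that were listed passed the filter, and the highest value of any of them was 0.301 FPKM. *Bmp6*, for example, lay between 0 and 0.222 FPKM.

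*Grem1*, whose product binds BMP4 and BMP2 and blocks them, had the largest log2 difference of the members with the knockdown in each medium and passed no threshold with the cytokines. *Grem1* (gene 23892, chr2:113579020-113588993, minus strand) measured 5.36, 6.25 and 7.55 FPKM in shRNA-NC and 29.8, 41.6 and 31.8 FPKM in shRNA-*Ddx5* cells in medium. Under the cytokines the values were 4.71, 14.7 and 5.16 FPKM in shRNA-NC and 36.6, 31.8 and 37.5 FPKM in shRNA-*Ddx5* cells. The knockdown groups lay above the control groups in either medium, and the second shRNA-NC library with cytokines was the only control library above 8 FPKM. The ratio of mean FPKM was 5.39 in medium and 4.31 with cytokines. The log2 difference was 2.26 ± 0.31 (SE) in medium (adjusted p = 0.000162) and 2.14 ± 0.31 with cytokines (adjusted p = 0.000227), and the latter was 2.61 without that second library. The cytokines gave a log2 difference of 0.16 in shRNA-NC (95% interval -0.52 to 0.84) and 0.05 in shRNA-*Ddx5* cells (-0.63 to 0.73). The first of these turned to -0.31 without the second shRNA-NC library with cytokines. Per unit of length, the ratio of *Grem1* to *Bmp4* was 0.146 to 0.190 in shRNA-NC and 0.324 to 0.508 in shRNA-*Ddx5* cells in medium. With cytokines it was 0.544 to 1.23 in shRNA-NC and 0.955 to 1.21 in shRNA-*Ddx5* cells, so that those groups overlapped through the same library.

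**Figure D1:**
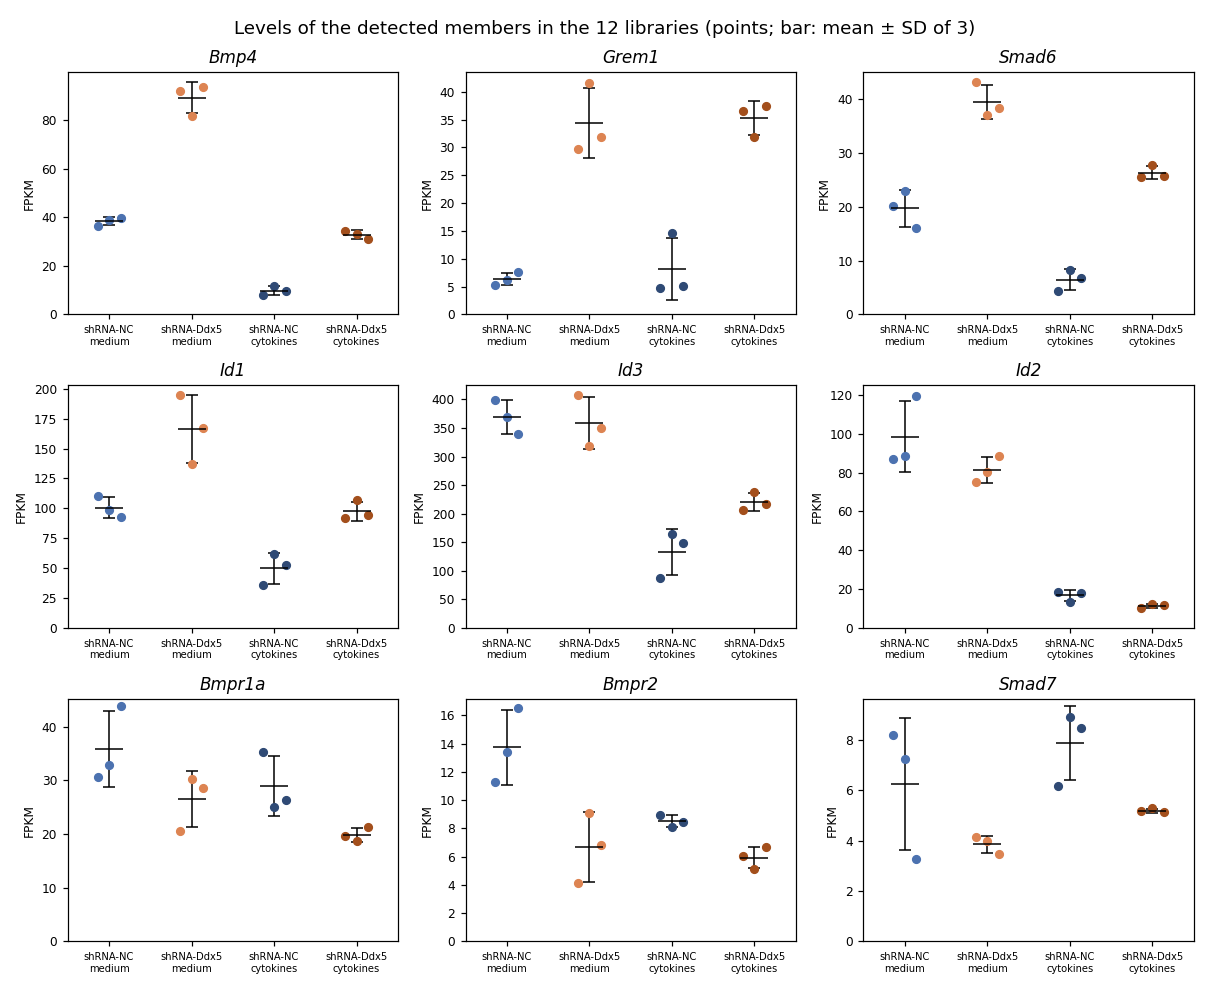
FPKM (linear axes from 0) of the 9 detected members in each library (points) of the 4 groups, with the mean and SD of 3 libraries (bars). *Bmp4*, *Grem1*, *Smad6* and *Id1* lie higher in shRNA-*Ddx5* than in shRNA-NC cells in either medium, while *Id2* falls with cytokines to between 10.03 and 18.7 FPKM in both lines.

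The 2 inhibitory Smads, which act inside the cell to limit BMP signalling, did not move alike. *Smad6* (gene 17130, chr9:63860358-63929374, minus strand) measured 20.1, 22.9 and 16.0 FPKM in shRNA-NC and 43.2, 37.1 and 38.3 FPKM in shRNA-*Ddx5* cells in medium. After stimulation it measured 4.35, 8.30 and 6.71 FPKM in shRNA-NC and 25.6, 27.7 and 25.8 FPKM in shRNA-*Ddx5* cells. No 2 groups overlapped, and every knockdown library, stimulated or not, lay above every control library. The knockdown raised *Smad6* 2.01-fold in medium and 4.08-fold with cytokines (log2 difference 0.98 ± 0.18 (SE), adjusted p = 0.00105, and 1.91 ± 0.18, adjusted p = 1.16e-05). The cytokines lowered it to 32.8% in shRNA-NC (log2 difference -1.50 ± 0.18, adjusted p = 9.19e-05) and to 66.7% in shRNA-*Ddx5* cells (-0.56 ± 0.18, adjusted p = 0.0368). The call in shRNA-*Ddx5* cells was lost when any 1 of the 6 shRNA-*Ddx5* libraries was left out (adjusted p from 0.0625 to 0.10). *Smad7* (gene 17131, chr18:75500436-75529006, plus strand) measured 8.18, 7.25 and 3.28 FPKM in shRNA-NC and 4.13, 3.97 and 3.48 FPKM in shRNA-*Ddx5* cells in medium. In stimulated cells the levels were 6.17, 8.90 and 8.47 FPKM in shRNA-NC and 5.16, 5.28 and 5.12 FPKM in shRNA-*Ddx5* cells. The third shRNA-NC library, the shallowest, lay below all 3 knockdown libraries in medium, while with cytokines the groups did not overlap. No comparison of *Smad7* passed the threshold. The knockdown gave log2 differences of -0.50 ± 0.23 in medium (adjusted p = 0.0999) and -0.50 ± 0.23 with cytokines (adjusted p = 0.101). Without the third shRNA-NC library in medium they were -0.84 (adjusted p = 0.000599) and -0.50 (adjusted p = 0.00530), both past the threshold, the second through a smaller estimate of the spread alone. The second also passed with only the libraries of that contrast (adjusted p = 0.0147). With each library left out in turn, the first ranged from -0.84 to -0.29, with an adjusted p of up to 0.334. The cytokines gave 0.35 in each line (adjusted p = 0.270 in shRNA-NC and 0.301 in shRNA-*Ddx5* cells). In shRNA-NC cells the value ranged from 0.0097 to 0.56 with each library left out, with an adjusted p of up to 0.965. In shRNA-*Ddx5* cells it passed the threshold without the third shRNA-NC library in medium (0.35, adjusted p = 0.0454). It also passed there with only the libraries of that contrast (adjusted p = 0.0174).

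The 3 Id genes, whose products hold basic helix-loop-helix factors away from DNA, all fell with the cytokines and differed in their response to the knockdown. *Id3* was the most abundant of the members, followed in unstimulated control cells by *Id1* and *Id2*, which did not differ beyond their spread (101 ± 9.12 and 98.4 ± 18.3 FPKM, SD, n = 3). *Id1* (gene 15901, chr2:152578171-152579330, plus strand) measured 111, 98.6 and 92.8 FPKM in shRNA-NC and 195, 137 and 167 FPKM in shRNA-*Ddx5* cells in medium. With both cytokines it measured 35.7, 61.5 and 52.3 FPKM in shRNA-NC and 92.2, 107 and 94.2 FPKM in shRNA-*Ddx5* cells. The stimulated knockdown cells overlapped with unstimulated control cells. The knockdown raised *Id1* 1.65-fold in medium (log2 difference 0.71 ± 0.18 (SE), adjusted p = 0.00776) and 1.96-fold with cytokines (0.99 ± 0.18, adjusted p = 0.00108). The first of these was 0.43 with an adjusted p of 0.0580 after quantile normalization. The cytokines lowered *Id1* to 49.5% in shRNA-NC (adjusted p = 0.00129) and to 58.7% in shRNA-*Ddx5* cells (adjusted p = 0.00991).

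*Id3* (gene 15903, chr4:135871133-135872703, plus strand) measured 398, 370 and 340 FPKM in shRNA-NC and 408, 318 and 349 FPKM in shRNA-*Ddx5* cells in medium, and these groups overlapped. Stimulated cells had 87.2, 164 and 149 FPKM in shRNA-NC and 207, 237 and 217 FPKM in shRNA-*Ddx5* cells, which did not. The knockdown gave a log2 difference of -0.05 in medium (95% interval -0.48 to 0.39) and raised *Id3* 1.65-fold with cytokines (0.77 ± 0.20, adjusted p = 0.00793). The latter was 0.49, still past the threshold, without the first shRNA-NC library with cytokines, the lowest of its group. The cytokines lowered it to 36.1% in shRNA-NC (adjusted p = 0.000177) and to 61.5% in shRNA-*Ddx5* cells (adjusted p = 0.0225), and the latter call was held in 8 of 12 fits that each left out a library, and not without the first shRNA-*Ddx5* library in medium (-0.60, adjusted p = 0.0636). *Id2* (gene 15902, chr12:25143798-25146091, minus strand) went the other way. It measured 87.0, 88.7 and 119 FPKM in shRNA-NC and 75.2, 80.6 and 88.5 FPKM in shRNA-*Ddx5* cells in medium. With cytokines it measured 18.7, 13.5 and 18.1 FPKM in shRNA-NC and 10.03, 12.2 and 11.9 FPKM in shRNA-*Ddx5* cells. The cytokines left 17.0% of *Id2* in shRNA-NC (log2 difference -2.48 ± 0.15, adjusted p = 3.22e-07) and 13.97% in shRNA-*Ddx5* cells (-2.74 ± 0.15, adjusted p = 1.09e-07), the largest cytokine responses among the members in either line. The knockdown gave -0.26 ± 0.15 in medium (adjusted p = 0.172), which became -0.55 and passed the threshold after quantile normalization (adjusted p = 0.0151). With each library left out in turn it ranged from -0.34 to -0.11 and did not pass (adjusted p from 0.119 to 0.529). With cytokines the knockdown lowered *Id2* to 67.9% (-0.51 ± 0.15, adjusted p = 0.0145). This call was lost without the first shRNA-NC library with cytokines (adjusted p = 0.0547), the third (0.0545) or the first shRNA-*Ddx5* library with cytokines (0.0623). Added together, the Id genes came to 552 to 596 FPKM in shRNA-NC and 536 to 678 FPKM in shRNA-*Ddx5* cells in medium, and to 142 to 239 and 309 to 356 FPKM with cytokines. *Id1* made up 16.8% to 18.6% of that sum in unstimulated control cells and 29.1% to 30.0% in stimulated knockdown cells, while *Id2* went from 14.6% to 21.6% down to 3.24% to 3.68%.

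Both receptors measured lower in knockdown cells, each past the threshold in 1 of the 2 media. *Bmpr1a*, a type I receptor (gene 12166, chr14:34133018-34225335, minus strand), measured 30.7, 32.8 and 43.9 FPKM in shRNA-NC and 20.6, 30.3 and 28.6 FPKM in shRNA-*Ddx5* cells in medium. Under the cytokines the values were 35.4, 25.1 and 26.4 FPKM in shRNA-NC and 19.6, 18.7 and 21.3 FPKM in shRNA-*Ddx5* cells. The groups did not overlap in either medium. The log2 difference was -0.42 ± 0.17 (SE) in medium (adjusted p = 0.0664), which did not pass the threshold, and -0.51 ± 0.17 with cytokines (adjusted p = 0.0332), which did. The former passed after quantile normalization (-0.57, adjusted p = 0.0268), with scaling to the sum of fragments (-0.52, adjusted p = 0.0269), with voom on fragments (-0.44, adjusted p = 0.0468) and in 3 of 12 fits that each left out a library. Over these 12 fits the difference in medium ranged from -0.53 to -0.26, with an adjusted p of up to 0.243. The call with cytokines was held in 8 of these 12 fits, and its adjusted p was 0.128 without the first shRNA-NC library with cytokines, 0.0805, 0.0982 and 0.0508 without the first, the second and the third shRNA-*Ddx5* library, and 0.0761 with no filter on low genes. The cytokines gave -0.30 in shRNA-NC (adjusted p = 0.212) and -0.38 in shRNA-*Ddx5* cells (adjusted p = 0.131), and the latter passed without the first shRNA-*Ddx5* library in medium (-0.55, adjusted p = 0.0323). *Bmpr2*, the type II receptor (gene 12168, chr1:59802721-59917240, plus strand), measured 11.3, 13.4 and 16.6 FPKM in shRNA-NC and 4.15, 9.11 and 6.83 FPKM in shRNA-*Ddx5* cells in medium. After stimulation it measured 8.94, 8.11 and 8.48 FPKM in shRNA-NC and 6.02, 5.15 and 6.66 FPKM in shRNA-*Ddx5* cells. The knockdown lowered it to 48.7% in medium (log2 difference -0.98 ± 0.21, adjusted p = 0.00280), and with cytokines the difference was -0.46 ± 0.21 (adjusted p = 0.0937), which passed when the spread was estimated from the libraries of that contrast alone (adjusted p = 0.00771) or without the first or the second shRNA-*Ddx5* library in medium (0.0219 and 0.0451). The cytokines lowered *Bmpr2* to 61.9% in shRNA-NC cells (-0.62 ± 0.21, adjusted p = 0.0401), a call that was held in 4 of 12 fits that each left out a library and was lost, among others, without the third shRNA-NC library in medium (-0.48, adjusted p = 0.128) and without the first or the second with cytokines (-0.65, adjusted p = 0.0691, and -0.59, adjusted p = 0.0959). In shRNA-*Ddx5* cells the difference was -0.10 (95% interval -0.56 to 0.36). The gene model of *Bmpr2*, at 11804 bases, is the longest among the members, and long genes as a class read lower after knockdown, with a median log2 difference of -0.15 in the longest 25% of genes and 0.17 in the shortest 25% in medium. After removal of that trend, a step added after seeing the data, *Bmpr2* was at -0.79 (adjusted p = 0.0029). Short genes read higher after knockdown with cytokines too (median 0.17 in the shortest 25%). The gene models of *Id3*, *Id1*, *Grem1* and *Bmp4* are short, at 953, 1160, 1639 and 2059 bases. That of *Id2*, which measured lower, is 1272 bases. The part of gene length in the differences of the members was not tested.

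**Figure D2:**
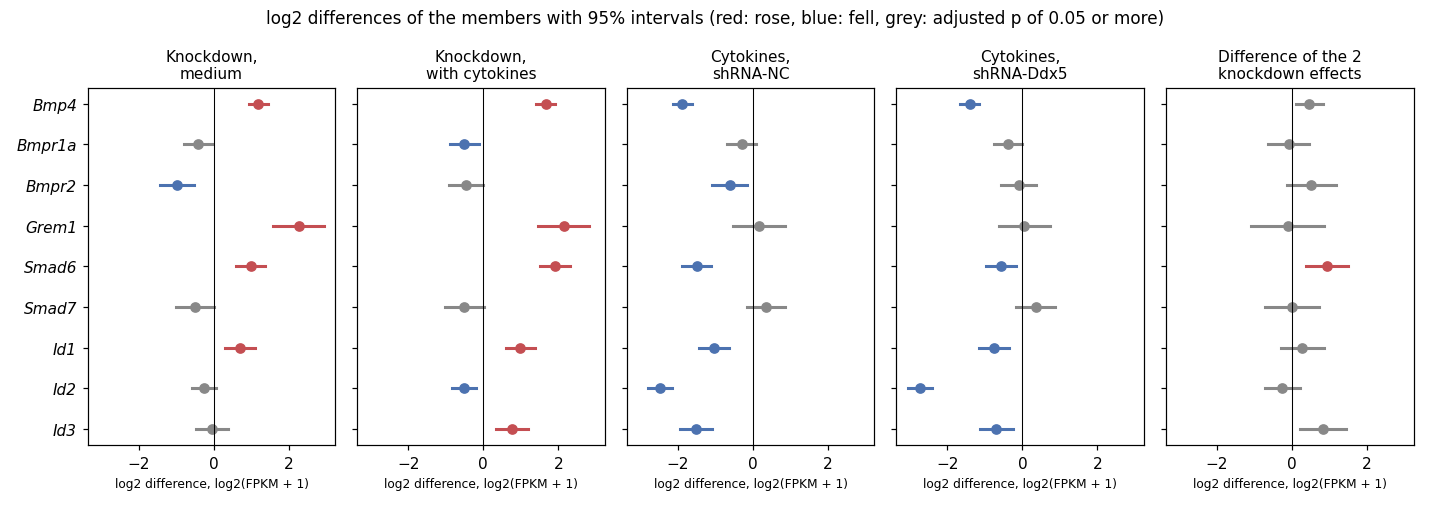
Difference on the log2(FPKM + 1) scale (points) with its 95% interval (lines) for the 9 tested members in the 4 comparisons, and, in the last panel, the knockdown effect with cytokines minus that in medium. Red and blue mark an adjusted p under 0.05. The 6 members that fell with cytokines in shRNA-NC cells lie left of 0, and *Smad6* is the only coloured member in the last panel.

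As a group, 9 of the 10 members passed the filter of 1 FPKM in at least 3 libraries and were tested, and each of the 9 reached 1 FPKM in all 12 libraries. With the knockdown in medium 4 rose (*Bmp4*, *Grem1*, *Id1* and *Smad6*) and 1 fell (*Bmpr2*), in a comparison where 25.3% of all genes tested rose and 21.7% fell. With the knockdown in the presence of cytokines 5 rose (the same 4 and *Id3*) and 2 fell (*Bmpr1a* and *Id2*), against 23.5% and 22.1% of all genes. The cytokines raised none of the 9 in shRNA-NC cells and lowered 6 (*Bmp4*, *Bmpr2*, *Id1*, *Id2*, *Id3* and *Smad6*), where they raised 18.6% and lowered 15.2% of all genes. In shRNA-*Ddx5* cells they raised none and lowered 5 (the same without *Bmpr2*), where they raised 13.5% and lowered 13.5% of all genes. The median log2 difference of the 9 members was -0.05, 0.77, -1.03 and -0.56 in these comparisons, in the order given, beside 0.03, 0.01, 0.02 and 0.00 over all genes. The knockdown and cytokine comparisons share groups of libraries, so these counts are not independent of each other. The exact two-sided permutation test, which cannot go below p = 0.1 with 3 libraries against 3, gave that value for every member whose groups did not overlap.

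Whether the knockdown acted differently with cytokines than in medium was tested by the difference of the 2 effects, for which 3.46% of all genes were called upward and 4.75% downward. Of the 9 members only *Smad6* passed, with a difference of 0.93 ± 0.25 (SE) on the log2 scale (adjusted p = 0.0452). This call stood at the margin: 3 of 12 fits that each left out a library held it, and the adjusted p reached 0.107. It was also lost with the replicate number as a block (adjusted p = 0.0622). *Id3* had a difference of 0.82 ± 0.28 (adjusted p = 0.101) and *Bmp4* of 0.47 ± 0.16 (adjusted p = 0.0984), and both passed without the second shRNA-NC library with cytokines (0.99, adjusted p = 0.0454, and 0.60, adjusted p = 0.0168). *Bmp4* also passed after quantile normalization (0.59, adjusted p = 0.0329). For the other 6 the intervals included 0, so that of *Grem1*, for example, ran from -1.08 to 0.85.

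The rest of the pathway was followed with a list of 55 genes, of which 30 passed the filter. They are known ligands, receptors, antagonists, Smads with their regulators, and targets. With the knockdown in medium 10 of the 30 rose and 6 fell, where 25.3% of all genes tested rose and 21.7% fell, and with cytokines 12 rose and 9 fell, against 23.5% and 22.1% of all genes. With the cytokines 6 rose and 9 fell in shRNA-NC cells, against 18.6% and 15.2% of all genes, and 5 rose and 10 fell in shRNA-*Ddx5* cells, against 13.5% in each direction. A gene that reaches the filter only in the group where it is high is bound to differ, so these counts are no support for a change of the list. Of the 30 genes 22 reached 1 FPKM in all 12 libraries, and among those 5 rose and 5 fell with the knockdown in medium, 7 and 8 with it in the presence of cytokines, 5 and 7 with the cytokines in shRNA-NC and 4 and 6 in shRNA-*Ddx5* cells. The percentages above are for all genes under the looser filter. No share of all genes at 1 FPKM in all 12 libraries is given here, so nothing is read from the counts of the 22. The counts by role below rest on 6 to 9 genes each, and nothing particular to a role is read from them. The genes named below are, for each role, the 3 with the largest change.

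Among the 9 tested antagonists, 5 rose and 2 fell with the knockdown in medium (25.3% and 21.7% of all genes), and likewise 5 and 2 with cytokines (23.5% and 22.1%). With the cytokines 2 rose and none fell in shRNA-NC (18.6% and 15.2% of all genes) and 3 rose and 2 fell in shRNA-*Ddx5* cells (13.5% in each direction). *Nog*, encoding noggin, had 8, 1 and 8 fragments in the shRNA-NC libraries and 161, 177 and 236 fragments in the shRNA-*Ddx5* libraries in medium. With cytokines it had 0, 5 and 0 fragments against 70, 98 and 93. Control cells were thus at or near the floor, and knockdown cells reached 5.67 ± 0.99 and 2.83 ± 0.54 FPKM (SD, n = 3). *Nog* passed the filter through the knockdown libraries alone, so its log2 differences of 2.51 in medium and 1.86 with cytokines, which understate changes of genes this low, are given as a description without p. *Fstl3*, a binder of activins, went down from 7.28 ± 0.38 to 1.99 ± 0.14 FPKM in medium (log2 difference -1.47, adjusted p = 9.48e-07) and from 7.92 ± 0.74 to 2.80 ± 0.33 FPKM with cytokines (-1.23, adjusted p = 2.65e-06). *Bmper*, which modulates BMP4 outside the cell, measured 0.406 ± 0.127 FPKM in medium and 3.68 ± 0.47 FPKM with cytokines in shRNA-NC cells (log2 difference 1.73), and 0.905 ± 0.065 and 4.78 ± 0.42 FPKM in shRNA-*Ddx5* cells (1.6). It passed the filter through the cytokine libraries alone, and no p is given for this difference.

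Of the 6 tested receptors and co-receptors, 2 rose and 1 fell with the knockdown in medium (25.3% and 21.7% of all genes), and 2 rose and 3 fell with it in the presence of cytokines (23.5% and 22.1%). The cytokines raised 1 and lowered 1 in shRNA-NC cells (18.6% and 15.2% of all genes), and raised none and lowered 1 in shRNA-*Ddx5* cells (13.5% in each direction). *Acvr2b*, an activin and BMP type II receptor, measured 2.43 ± 0.12 FPKM in shRNA-NC and 0.616 ± 0.076 FPKM in shRNA-*Ddx5* cells in medium (log2 difference -1.08), and 2.09 ± 0.13 and 0.468 ± 0.025 FPKM with cytokines (-1.07). It passed the filter through the shRNA-NC libraries alone, and no p is given. Its relative *Acvr2a* measured 3.99, 4.26 and 4.58 FPKM in shRNA-NC against 2.36, 3.39 and 3.33 FPKM in shRNA-*Ddx5* cells in medium (-0.40, adjusted p = 0.0524). The knockdown lowered *Acvr2a* in the presence of cytokines (-0.72, adjusted p = 0.00286). *Rgma*, a BMP co-receptor, fell with the cytokines by 0.74 in either line (adjusted p = 0.000205 in shRNA-NC and 0.000186 in shRNA-*Ddx5* cells). With the knockdown *Rgma* differed by 0.30 in medium and 0.31 with cytokines (adjusted p = 0.0249 for each), but neither call was stable. Both were lost when libraries were scaled to the sum of fragments (0.0985 and 0.0555). The call in medium was also lost with the libraries of that contrast alone (0.0873) and without the first or the third shRNA-NC library (0.0733 and 0.0531) or the first shRNA-*Ddx5* library (0.19 on the log2 scale, adjusted p = 0.0780) in medium. That with cytokines was lost without the first shRNA-NC library (0.0758) or any 1 of the 3 shRNA-*Ddx5* libraries (0.0568 to 0.0677) with cytokines.

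Of the 9 Smads and regulators, none rose and 3 fell with the knockdown in medium (25.3% and 21.7% of all genes), and 1 rose and 4 fell with it in the presence of cytokines (23.5% and 22.1%). The cytokines raised 3 and lowered 3 in shRNA-NC cells (18.6% and 15.2% of all genes), and raised 2 and lowered 3 in shRNA-*Ddx5* cells (13.5% in each direction). *Smad9*, a receptor-activated Smad, fell with the cytokines from 10.5 ± 0.94 to 2.99 ± 0.87 FPKM in shRNA-NC (log2 difference -1.55, adjusted p = 1.97e-05) and from 11.02 ± 1.16 to 5.46 ± 0.52 FPKM in shRNA-*Ddx5* cells (-0.89, adjusted p = 0.00107). *Ski* and *Skil*, whose products repress Smad-driven transcription, both fell with the knockdown. *Skil* fell by 1.30 on the log2 scale in medium (adjusted p = 1.82e-05) and by 0.77 with cytokines (adjusted p = 0.000590). *Ski* fell by 0.34 in medium (adjusted p = 0.00304) and by 0.97 with cytokines (adjusted p = 2.89e-06).

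Of the 6 other targets tested, 3 rose and none fell with the knockdown in medium (25.3% and 21.7% of all genes), and 4 rose and none fell with it in the presence of cytokines (23.5% and 22.1%). With the cytokines none rose in either line, 5 fell in shRNA-NC cells, where 15.2% of all genes fell, and 4 fell in shRNA-*Ddx5* cells, where 13.5% did. *Sp7*, a transcription factor of bone-forming cells, measured 2.52, 3.07 and 2.27 FPKM in shRNA-NC and 30.4, 25.4 and 29.2 FPKM in shRNA-*Ddx5* cells in medium. In stimulated cells the levels were 0.586, 0.934 and 0.331 FPKM against 4.25, 5.00 and 4.79 FPKM. Its log2 difference with the knockdown was 3.02 in medium (adjusted p = 1.19e-07) and 1.83 with cytokines. In stimulated cells *Sp7* reached 1 FPKM in the shRNA-*Ddx5* libraries alone, so no p is given for the latter difference. *Dlx5*, a homeobox gene of bone and cartilage development, measured 9.62, 10.98 and 8.30 FPKM in shRNA-NC and 43.5, 38.0 and 40.1 FPKM in shRNA-*Ddx5* cells in medium. With cytokines the lines overlapped at 8.14, 9.86 and 6.70 FPKM against 10.1, 11.2 and 8.28 FPKM. The log2 difference of *Dlx5* with the knockdown was 1.97 in medium (adjusted p = 2.31e-06) and 0.24 with cytokines (adjusted p = 0.194). *Id4*, the fourth Id gene, measured 3.597 ± 0.98 FPKM in medium and 0.490 ± 0.126 FPKM with cytokines in shRNA-NC (log2 difference -1.61), and 2.86 ± 0.35 and 0.783 ± 0.152 FPKM in shRNA-*Ddx5* cells (-1.11). It passed the filter through the libraries in medium alone, and no p is given.

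**Figure D3:**
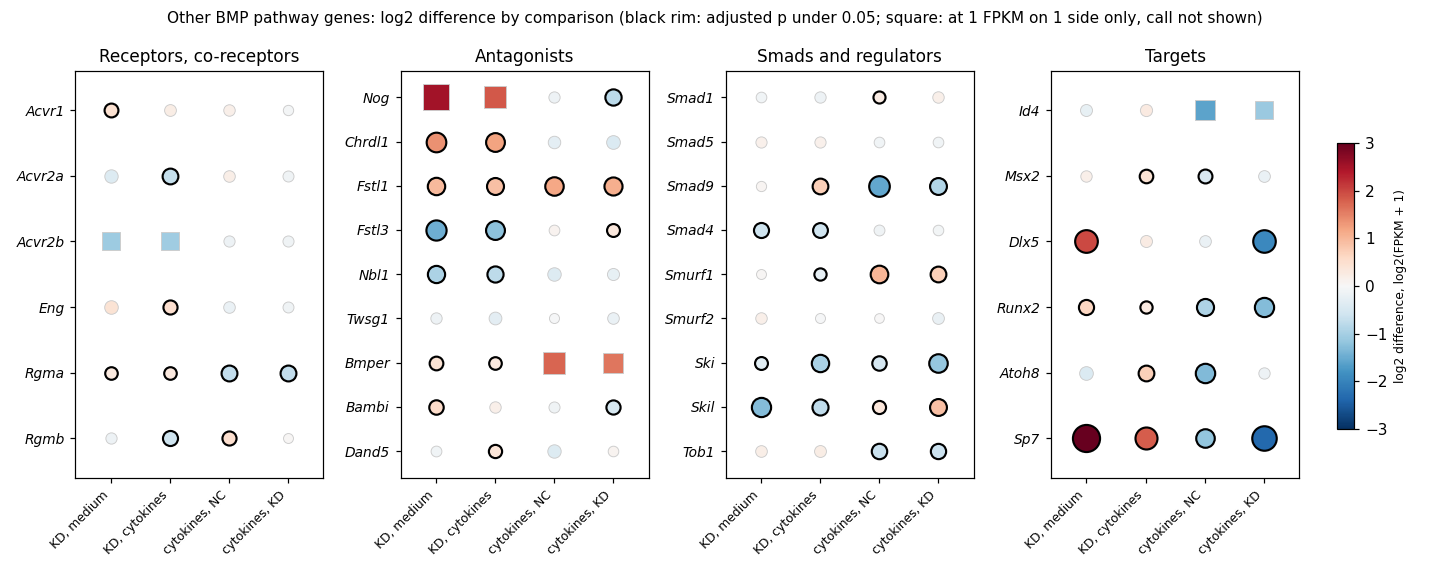
Difference on the log2(FPKM + 1) scale (colour, red higher and blue lower, and size of the symbol) of the 30 tested genes of the pathway list in the 4 comparisons. KD is shRNA-*Ddx5* and NC is shRNA-NC, and a black rim marks an adjusted p under 0.05. Squares, drawn without a call, are genes that reached 1 FPKM in 1 line alone (knockdown comparisons) or in 1 medium alone (cytokine comparisons). A circle can still stand for a gene that reached 1 FPKM in 1 of the 2 groups compared, as for *Sp7* with the knockdown in stimulated cells. No p is read from the rim of such a circle. *Nog* and *Sp7* have the largest differences with the knockdown, at 2.51 and 3.02 in medium.

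**Figure D4:**
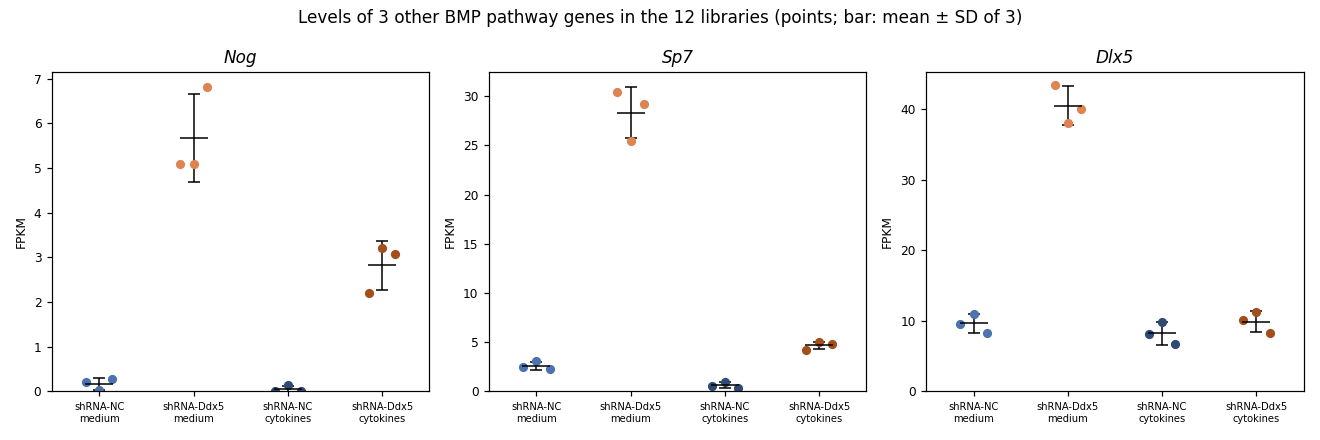
FPKM (linear axes from 0) of *Nog*, *Sp7* and *Dlx5* in each library (points), with the mean and SD of 3 libraries (bars). *Dlx5* is high in unstimulated knockdown cells alone, at 38.0 to 43.5 FPKM against at most 11.2 FPKM in the other 9 libraries.

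The genes whose pattern over the 12 libraries was most like that of 3 members were found by Pearson correlation of log2(FPKM + 1), given as a description. The points fall into 4 groups, so the correlations mostly restate the group means. For *Bmp4* they were *Timp2* (r = 0.997), *Boc* (r = 0.994) and *Mical2* (r = 0.993). *Timp2*, an inhibitor of matrix metalloproteinases, lay at 350 to 385 FPKM in shRNA-NC and 575 to 619 FPKM in shRNA-*Ddx5* cells in medium, and at 180 to 216 and 322 to 349 FPKM with cytokines. For *Id1* they were *Nuak1*, *Dap* and *Gas1* (r = 0.987, 0.987 and 0.986). For *Grem1* they were *Cyp1b1* (r = 0.994), *Scara5* (r = 0.979) and *Tmsb4x* (r = 0.978). Like *Grem1*, *Cyp1b1*, a cytochrome P450 gene, and *Tmsb4x*, encoding thymosin β4, were higher in the second shRNA-NC library with cytokines (7.77 and 22.5 FPKM) than in the other 2 of its group (3.74 and 4.33 FPKM, and 7.90 and 5.51 FPKM).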

How the data were processed

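RNA-seq of ATDC5 cells was taken from 12 libraries, 3 in each of 4 groups, with groups from the labels and doses from the study's methods. The deposited unit is FPKM, for which the authors took featureCounts fragment counts per gene and divided them by gene length and by a depth denominator for each library. The processing notes name HISAT2 2.0.5 and mm10, while the deposited coordinates follow GRCm39. Every FPKM times gene length was a whole multiple of a step per library (100% of values within 0.01), which gave back the fragments. No column was left unmapped.

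Values were compared as log2(FPKM + 1), which understates changes of low genes, for the 12368 genes that reached 1 FPKM in 3 or more libraries. limma 3.58.1 in R 4.3.3 (lmFit, contrasts.fit, eBayes with trend) was fitted to 4 group means with no covariate, and p-values were adjusted by Benjamini-Hochberg over all genes tested, with a threshold of 0.05. The fit was run on simulated counts with the same dispersion for every gene and no library effects. That setting is simpler than these libraries, so the run checks the code only. DESeq2, which the authors used, and other count tests were not run on FPKM. The 10 members and the pathway and marker lists were chosen with earlier results of these data known. Named were all members, *Ddx5*, genes of the marker lists, for each role of the pathway list the 3 tested genes with the largest change, genes listed as not tested, and the 3 genes most correlated with *Id1*, *Bmp4* and *Grem1*. *Atoh8* was named after its values were seen.

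Alternatives tried were quantile normalization, scaling to the sum of fragments, a pseudocount of 0.1, every gene kept, genes at 1 FPKM or more in all 12 libraries, no trend, only the libraries of the contrast, the replicate number as a block, voom on fragments, and each library left out in turn. A gene length correction (spline with 5 degrees of freedom) and leaving out 2 libraries were added after seeing the data. Python 3.11.15 with matplotlib 3.10.9 made the figures.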

Additional observations from a re-analysis of the deposited data

Results flagged for a closer look

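The knockdown effect differed between cells with cytokines and cells in medium, by the test of that difference, for 1 member and 4 genes of the pathway list, and these are given as values only. For *Smad6* the effect was 0.93 larger with cytokines on the log2 scale (adjusted p = 0.0452). It was called in 3 of 12 fits that each left out a library and in 4 of the 8 other planned fits. The 3 that held it left out the third shRNA-NC library in medium, the first shRNA-NC library with cytokines or the second.

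*Dlx5* had a difference of -1.73 (adjusted p = 0.000537), the largest of the 5 in size, and its call was held in all 12 fits that each left out a library and in all 8 other planned fits. *Ski* had a difference of -0.63 (adjusted p = 0.00420), and its call was likewise held in all of these fits. *Sp7* had a difference of -1.19 (adjusted p = 0.00366), since its rise was 3.02 in medium and 1.83 with cytokines on the log2(FPKM + 1) scale. With a pseudocount of 0.1 the difference of *Sp7* was -0.57 (adjusted p = 0.378) and with voom on fragments -0.40 (adjusted p = 0.518). The call was thus lost under both, and the cause was not tested.

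*Atoh8*, a basic helix-loop-helix target of BMP signalling that was named after its values were seen, had a difference of 1.16 (adjusted p = 0.0251). It measured 67.6, 64.9 and 44.0 FPKM in shRNA-NC and 49.8, 36.3 and 42.0 FPKM in shRNA-*Ddx5* cells in medium. With cytokines it measured 16.8, 26.3 and 25.7 FPKM against 36.8, 39.2 and 37.1 FPKM, where the groups did not overlap. Its call was held in 5 of 12 fits that each left out a library and in 6 of the 8 other planned fits, and its adjusted p ranged from 0.00798 to 0.0652 over the former. Among the latter it was lost with no filter (adjusted p = 0.0584) and with the replicate number as a block (adjusted p = 0.0547).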

How the results depend on the processing

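Over the 9 tested members, *Ddx5* and the called comparisons of 13 pathway genes, 1926 of 2086 alternative values kept their direction and side of the threshold, 94 kept their direction and lost the call, 25 gained one and 41 changed sign, the last all among results that were not called. The cause of these changes was not tested. Counts of called genes in the 4 comparisons of 2 groups, and all counts for the pathway list, stayed within 1.5 times the reported ones. The count of members called with the cytokines in shRNA-*Ddx5* cells, 5 and all lowered, was 3 with no filter and ranged from 3 to 6 with each library left out, where the sixth was *Smad7*, called upward without the third shRNA-NC library in medium. For the difference of the knockdown effects, the 1016 genes ranged from 559 to 1123 with each library left out, and the member count of 1 ranged from 0 to 3. That member count was 0 with a pseudocount of 0.1, with no filter and with scaling to the sum of fragments, 2 after quantile normalization and 4 (*Bmp4*, *Id2*, *Id3* and *Smad6*) with 2 libraries left out (the third shRNA-NC library in medium and the second with cytokines).

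Signs changed for small differences. With the 2 libraries left out, the cytokine response in shRNA-NC cells was -0.19 for *Grem1* and -0.0786 for *Smad7*. In shRNA-*Ddx5* cells that of *Grem1* was -0.0552 after quantile normalization and -0.0968 after length correction. The difference of the knockdown effects was 0.0275 for *Bmpr1a*, 0.0477 for *Id2* and 0.0529 for *Ddx5* after quantile normalization. It was 0.24 for *Grem1*, 0.43 for *Smad7* and 0.0357 for *Ddx5* with 2 libraries left out, and 0.0251 for *Smad7* and 0.0320 for *Ddx5* after length correction. With scaling to the sum of fragments it was 0.0344 for *Smad7* and 0.0404 for *Ddx5*, and for *Smad7* it was 0.0084 with a pseudocount of 0.1 and 0.0448 with voom. With each library left out, the knockdown in medium ranged from -0.14 to 0.0357 for *Id3*. The cytokine response in shRNA-NC cells ranged from -0.31 to 0.42 for *Grem1* and from -0.10 to 0.0028 for *Ddx5*. In shRNA-*Ddx5* cells it ranged from -0.365 to 0.122 for *Bmpr2*, from -0.0462 to 0.19 for *Grem1* and from -0.13 to 0.0616 for *Ddx5*. The difference of the knockdown effects ranged from -0.25 to 0.0638 for *Bmpr1a*, from -0.38 to 0.35 for *Grem1*, from -0.21 to 0.34 for *Smad7* and from -0.0878 to 0.10 for *Ddx5*.

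The labels number the replicates 1 to 3 in each group. Same-numbered libraries correlated above 0.1 in 4 of 18 pairs, with a mean of -0.0450 over the pairs, and in 7 of 18 they correlated more than the mean of other numbers, so they were not treated as paired. Those of shRNA-NC and shRNA-*Ddx5* in medium correlated at 0.448, 0.0425 and 0.313. Those of shRNA-*Ddx5* in medium and shRNA-NC with cytokines correlated at -0.394, -0.204 and -0.213. A single block over the 4 groups cannot represent a pairing in medium alone, which was not tested. With the replicate number as a block, 5452, 5232, 3769 and 2902 genes were called in the 4 comparisons and 687 for the difference of effects, of which 674 were also called without it. The member counts kept their values of 5, 7, 6 and 5, and that for the difference was 0.

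At the depth of 14119199 to 19276520 fragments, a count of 0 for a gene of the length of *Bmp2* allows a level of up to 0.0408 to 0.0560 FPKM, depending on the library. RNA was measured, not protein, secretion or Smad phosphorylation.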
